A study of Sus scrofa with 8 samples.

Results

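The integrated stress response is the programme by which a cell lowers general protein synthesis and turns on a small set of repair genes. Kinases that sense amino acid shortage, misfolded protein, viral RNA, lack of heme or mitochondrial trouble phosphorylate the translation factor eIF2α, and the mRNA of the transcription factor ATF4 is then translated more. ATF4 and its partners switch on genes of amino acid supply, redox balance and feedback control, and in heart muscle with mitochondrial damage they are known to raise the secreted factors GDF15 and FGF21. Because ATF4 is controlled largely at translation, its mRNA is one readout among several.

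Described here are 10 such genes of miniature pig heart tissue, chosen by name: the transcription factors ATF4, ATF5, ATF3 and DDIT3, the pseudokinase TRIB3, the enzymes and regulators CHAC1, ASNS and SESN2, and the hormones GDF15 and FGF21. All 10 were found among the 31014 genes of the deposited count table. The animals were wild type, and 5 heart samples came from the group given doxorubicin, an anthracycline used against cancer that is known to damage the heart, and 3 from the group given vehicle. The labels give no dose, schedule, age or sex, nor do they say that each sample came from its own animal, so p-values measure the spread between these samples. Library totals ran from 16105242 to 18267178 counts. Levels of one gene are given as CPM, a gene's counts relative to its library's size scaled by TMM (trimmed mean of M values), and doxorubicin was compared with vehicle by edgeR's quasi-likelihood test with Benjamini-Hochberg adjusted p under 0.05 over all 14938 tested genes.

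Summed cardiomyocyte markers were at 36700 to 67600 CPM after doxorubicin and 68300 to 73200 CPM in vehicle, with the lowest value in doxorubicin 5. Fibroblast markers summed to 2830, 4640, 7240, 2470 and 31400 CPM in doxorubicin 1 to 5, against 1240 to 1440 CPM in vehicle, and macrophage markers to 235 to 712 CPM after doxorubicin, against 136 to 180 CPM in vehicle. Such sums rest mostly on the abundant markers. Of 10 cardiomyocyte markers 2 fell and 8 did not pass. Of 8 fibroblast markers 4 rose, 1 fell and 3 did not pass, and of 8 macrophage markers 5 rose and 3 did not pass. Of all tested genes 13.6% were called higher and 11.3% lower. By these sums doxorubicin 5 stood apart in fibroblast markers. Its endothelial markers summed lowest, to 536 CPM, against 1180 to 1520 CPM in vehicle. Its smooth muscle and pericyte markers summed highest, to 4340 CPM, against 798 to 1460 CPM in vehicle. Doxorubicin 5 also had the smallest share of counts from mitochondrial DNA, at 8.70%, against 12.3% to 16.6% in the other doxorubicin libraries and 23.6% to 27.5% in vehicle. Relative to the vehicle mean, the 1494 tested genes with the longest gene models lay 0.53 below all tested genes on the log2 scale in doxorubicin 5, and within 0.21 of them in the other libraries. In bulk tissue, a change in the number of cells of a type and a change in RNA per cell cannot be told apart.

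After doxorubicin, 4 of the 9 genes that could be tested rose: SESN2, ATF5, GDF15 and CHAC1. The other 5, ATF4, DDIT3, ATF3, TRIB3 and ASNS, did not pass, and FGF21 had too few reads for the fit. CHAC1 and GDF15, with 1 and 2 vehicle reads in all, passed the filter on low counts only through their doxorubicin libraries. Their calls therefore cannot be read against the share of all tested genes, and both also enter the median below. SESN2 and ATF5, with 81 and 107 vehicle reads in all, were the other calls. No gene of the set was lower by edgeR, with 0 at an unadjusted p under 0.05, 0 by DESeq2 and 1 by limma, namely ASNS. Higher calls numbered 4 by DESeq2, which gave 1 of the 9 no adjusted p, and 6 by limma. These tools called 2824 and 4030 of all 14938 tested genes higher. Of all tested genes 13.6% were called higher and 11.3% lower, 24.9% in all. The median log2 fold change of the 9 genes was 0.80, beside 0.02 over all tested genes. Scaled by library size only, 5 of the 9 were called higher (ATF3 joined), a scaling under which the median of all tested genes was 0.38 and calls split into 4093 higher and 499 lower, beside 2033 higher and 1681 lower with TMM. With 1 vehicle library left out the count fell, as did the share of all tested genes called higher. Without vehicle 1, 0 of the 9 were called higher (5 doxorubicin and 2 vehicle libraries, 2.16% of all tested genes). Without vehicle 2 there were 2 (7.14%), and without vehicle 3 there was 1 (2.19%).

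A single doxorubicin library held most of the highest values. Doxorubicin 5 was the highest doxorubicin library for 9 of the 10 genes, all but ATF3, where the same library was highest for 33.1% of all tested genes. It stood apart from the other doxorubicin libraries (gap over range above 0.71) for 5 of the 10, ATF4, ATF5, DDIT3, CHAC1 and ASNS, as for 6.5% of all tested genes. In doxorubicin 5 all 10 genes lay above the highest vehicle library, as 40.1% of all tested genes did. In doxorubicin 1, 2, 3 and 4 the number above the highest vehicle library was 5, 7, 8 and 6, where 35.5%, 37.2%, 39.3% and 36.7% of all tested genes lay there. Without doxorubicin 5, 5 of the 9 genes were called higher (ATF3 joined the others) and 1 was called lower (ASNS), beside 16.8% higher and 15.4% lower of all tested genes. The part of tissue markers and long genes in these differences was not tested.

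**Figure D1:**
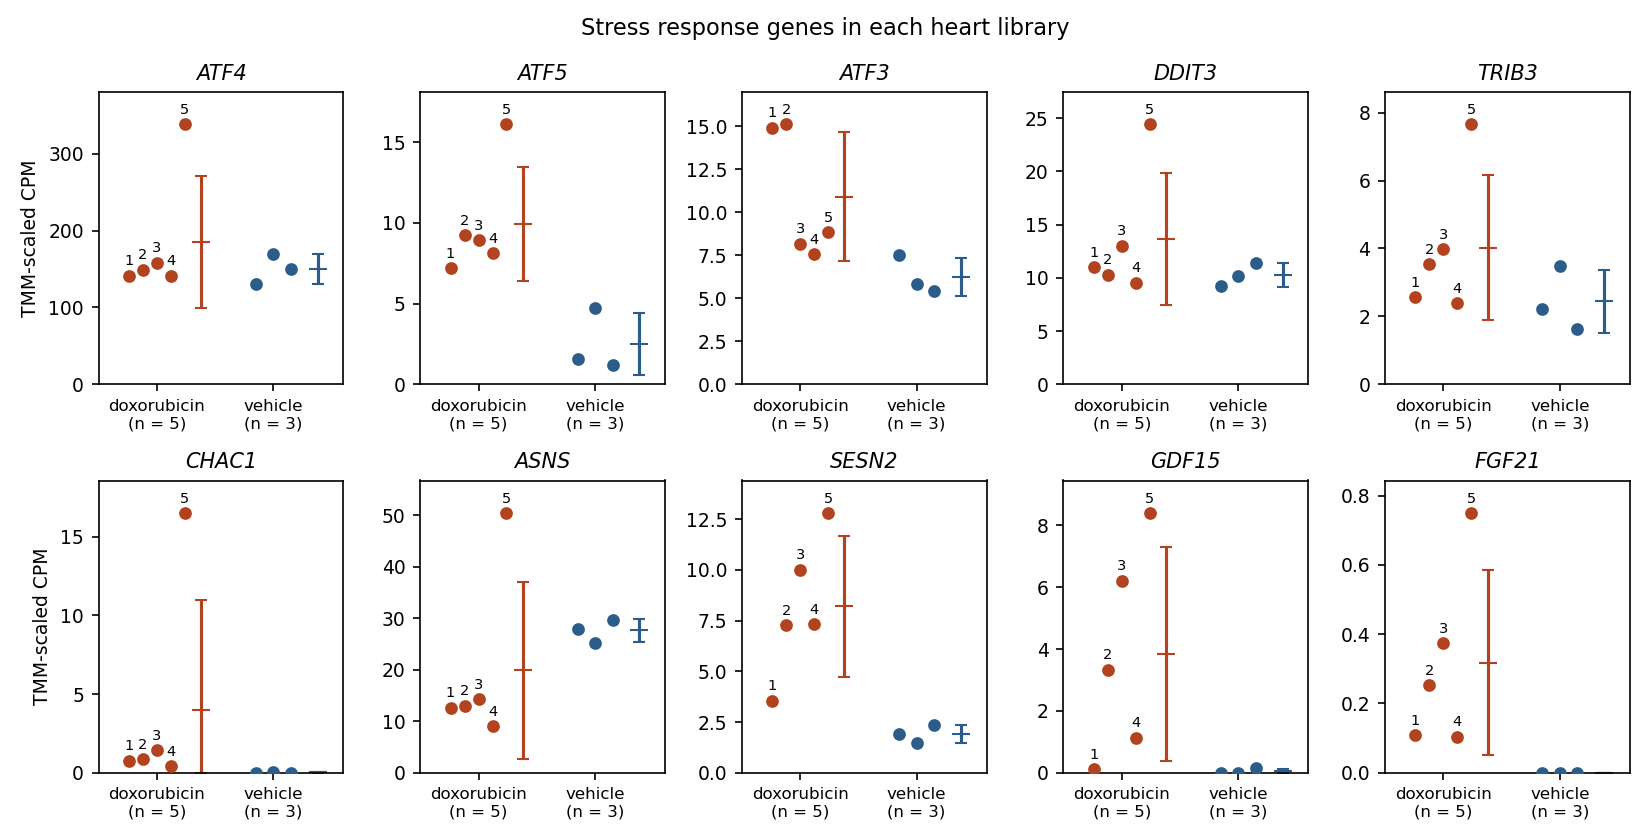
TMM-scaled CPM (vertical axes, linear and from 0) of each gene in the 5 doxorubicin libraries (red, numbered by replicate) and the 3 vehicle libraries (blue), with bars for mean and SD, cut at 0. Doxorubicin 5 is the highest doxorubicin point in every panel but ATF3, and the other 4 doxorubicin points of ASNS lie below all vehicle points.

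ATF4, the transcription factor at the centre of the response, was the most abundant of these mRNAs and did not pass. The gene (identifier 100144302) lies on chromosome 5, 8742964 to 8745752 on the minus strand of assembly Sscrofa11.1. It was at 141, 149, 158, 141 and 338 CPM in doxorubicin 1 to 5, against 130, 170 and 150 CPM in vehicle 1 to 3. In doxorubicin 1 to 4 ATF4 thus lay inside the vehicle range, and only doxorubicin 5 exceeded it. The log2 fold change was 0.30 (SE 0.31, adjusted p = 0.491), and without doxorubicin 5 it was −0.02 (SE 0.14, adjusted p = 0.906), so its sign rests on that library. This is a measurement of mRNA and says nothing of ATF4 translation.

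ATF5, a related factor that in mammalian cells is linked to the mitochondrial stress response, rose 3.96-fold. Its level was 7.20, 9.25, 8.92, 8.14 and 16.1 CPM in doxorubicin 1 to 5, against 1.57, 4.72 and 1.21 CPM in vehicle 1 to 3. The groups did not overlap, as for 34.9% of all tested genes, and vehicle 2 was the vehicle library closest to doxorubicin. The log2 fold change was 1.98 (SE 0.47, adjusted p = 0.0180), with 5 of 5 doxorubicin libraries above vehicle, and 1.74 (adjusted p = 0.0136) without doxorubicin 5. The call was lost without vehicle 1 (adjusted p = 0.0853) and without vehicle 3 (0.0754), and without vehicle 2 the log2 fold change was 2.83. ATF5 (chromosome 6, 54945067 to 54950142, plus strand) shares 639 bases with NUP62 and 774 bases with IL4I1 on the opposite strand. Whether counting used strand was not stated, so reads there cannot be told apart. IL4I1 had 55, 83, 77, 106 and 43 counts in doxorubicin 1 to 5 and 18, 51 and 49 counts in vehicle 1 to 3. NUP62 had 231, 325, 273, 358 and 220 counts in doxorubicin 1 to 5 and 153, 213 and 182 counts in vehicle 1 to 3. The part of either gene in the ATF5 counts was not tested.

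ATF3, a stress-induced repressor of the same family, had its own order of libraries. It was at 14.9, 15.1, 8.17, 7.57 and 8.85 CPM in doxorubicin 1 to 5, against 7.5, 5.83 and 5.4 CPM in vehicle 1 to 3. Doxorubicin 1 and 2 were high, and doxorubicin 4 was barely above vehicle 1. The groups did not overlap, yet the test was not passed (log2 fold change 0.80, SE 0.30, adjusted p = 0.0716). Without doxorubicin 5 the adjusted p was 0.0454 and the log2 fold change 0.87. ATF3 lies on chromosome 9, 130772259 to 130829678, on the minus strand.

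DDIT3 encodes CHOP, the factor that carries prolonged stress toward cell death, and its levels by library resembled those of ATF4. It was at 11, 10.3, 13.0, 9.54 and 24.4 CPM in doxorubicin 1 to 5, against 9.22, 10.2 and 11.4 CPM in vehicle 1 to 3. Only doxorubicin 3 and 5 lay above the vehicle range. The log2 fold change was 0.41 (SE 0.31, adjusted p = 0.353), and 0.10 (adjusted p = 0.694) without doxorubicin 5. DDIT3 (chromosome 5, 22785441 to 22789867, minus strand) shares 69 bases with MARS on the opposite strand. TRIB3, a pseudokinase that ATF4 and CHOP induce and that restrains them in turn, was at 2.56, 3.54, 3.97, 2.39 and 7.65 CPM after doxorubicin, against 2.21, 3.47 and 1.64 CPM in vehicle. Its groups overlapped, with doxorubicin 1 and 4 inside the vehicle range. The log2 fold change was 0.72 (SE 0.45, adjusted p = 0.251), and the gene lies on chromosome 17, 34808273 to 34819592, on the minus strand.

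CHAC1, an ATF4 target that breaks down glutathione, was almost unread in vehicle. It had 14, 17, 31, 8 and 330 reads in doxorubicin 1 to 5, against 0, 1 and 0 reads in vehicle 1 to 3. All 5 doxorubicin libraries lay above all 3 vehicle libraries, and 330 of the 400 doxorubicin reads came from doxorubicin 5. Over the summed reads and TMM-scaled library totals the ratio was 172 (95% counting interval 30.7 to 6806, exact), and 37.7 (6.55 to 1511) without doxorubicin 5. These intervals cover counting error only. The gene passed with all libraries (adjusted p = 0.0354) and without doxorubicin 5 (adjusted p = 0.00698). It did not pass without vehicle 1, 2 or 3 (adjusted p = 0.124, 0.105 and 0.117) or with no filter on low counts (0.0907), and its fitted fold change, like that of GDF15, depends on the prior count and is shown in plots only, where its size should not be read. CHAC1 lies on chromosome 1, 130360510 to 130363332, on the minus strand.

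ASNS, asparagine synthetase, a classical ATF4 target, lay below vehicle in 4 of 5 doxorubicin libraries and did not pass. It was at 12.6, 13.0, 14.3, 9.08 and 50.4 CPM in doxorubicin 1 to 5, against 27.9, 25.2 and 29.7 CPM in vehicle 1 to 3. Doxorubicin 1 to 4 lay below every vehicle library and doxorubicin 5 lay above every one. With all libraries the log2 fold change was −0.47 (SE 0.51, adjusted p = 0.512). Without doxorubicin 5 the log2 fold change was −1.17 (SE 0.17, adjusted p = 0.00269). With all libraries neither edgeR nor DESeq2 gave this call, while limma did. ASNS lies on chromosome 9, 77318341 to 77336290, on the minus strand.

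SESN2, sestrin 2, which restrains the growth kinase mTORC1 when leucine or energy runs short and is induced by both ATF4 and p53, rose 4.28-fold. It was at 3.55, 7.27, 10, 7.31 and 12.8 CPM in doxorubicin 1 to 5, against 1.93, 1.46 and 2.35 CPM in vehicle 1 to 3. The groups did not overlap, and doxorubicin 1 was closest to vehicle. The log2 fold change was 2.10 (SE 0.42, adjusted p = 0.0109), with 5 of 5 doxorubicin libraries above vehicle, and 1.88 (adjusted p = 0.00660) without doxorubicin 5. Without vehicle 1 it did not pass (adjusted p = 0.0554). SESN2 lies on chromosome 6, 85321982 to 85348044, on the plus strand.

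GDF15, a hormone of the TGF-β superfamily released by stressed tissues, was close to unread in vehicle. It had 2, 66, 133, 22 and 168 reads in doxorubicin 1 to 5, against 0, 0 and 2 reads in vehicle 1 to 3. Doxorubicin 1 had as many reads as vehicle 3, so the groups overlapped, while the other 4 doxorubicin libraries were above all vehicle libraries. The ratio of summed reads over TMM-scaled library totals was 84.0 (95% counting interval 23.1 to 696, exact), and 60.1 (16.4 to 499) without doxorubicin 5. The gene passed with all libraries (adjusted p = 0.0227), and not without vehicle 1, 2 or 3 (adjusted p = 0.0954, 0.0778 and 0.0776). GDF15 lies on chromosome 2, 59409035 to 59411356, on the minus strand.

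FGF21, a hormone of fasting and mitochondrial stress made mostly by liver, was read only after doxorubicin. It had 2, 5, 8, 2 and 15 reads in doxorubicin 1 to 5 and 0 reads in each vehicle library. With 3 counts put in place of 0 for the summed vehicle group, the FGF21 ratio was 4.58 on TMM-scaled totals (3.05 without doxorubicin 5). On library totals without TMM it was 5.87. The doxorubicin reads are taken as exact in these ratios, so they are not confidence limits. On CPM the groups averaged 0.318 ± 0.266 after doxorubicin and 0 in vehicle (SD, n = 5 and n = 3), with an exact two-sided permutation p of 0.0357, the smallest that 5 libraries against 3 allow. This p restates that the groups did not overlap, as for 17.1% of all tested genes with doxorubicin higher. The permutation was added after the filter had removed the gene, so it is no independent support. With any 1 library left out, the smallest p that the design allows is 0.0571 or 0.0952, and that p was reached, so no smaller value was possible. FGF21 lies on chromosome 6, 54082653 to 54084532, on the plus strand. Of 4 liver markers listed, SERPINA1 was at 0 in all libraries and TTR had 0 reads in 7 of the 8, while APOA1 was at 28.7 to 40.3 CPM after doxorubicin and 24.9 to 45.1 CPM in vehicle. ALB fell, to 0.934 to 2.80 CPM after doxorubicin, against 3.56 to 6.73 CPM in vehicle (adjusted p = 0.0201). The part of liver RNA in the FGF21 reads was not tested.

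**Figure D2:**
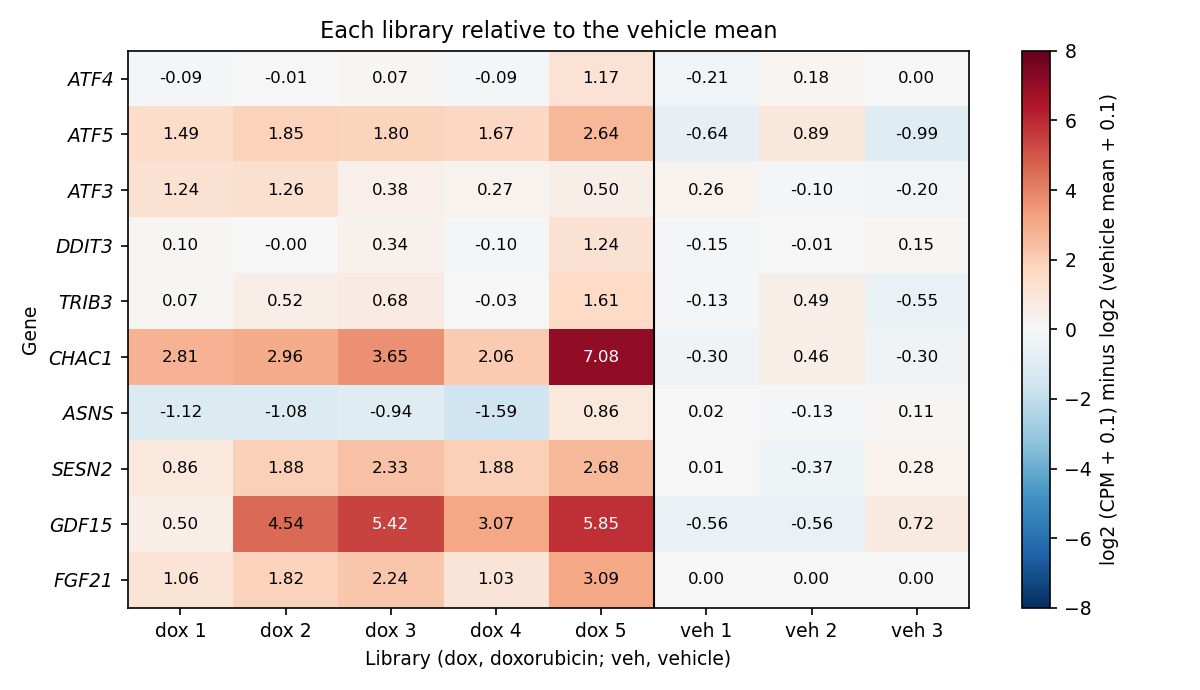
Each library's level of each gene relative to the mean of the 3 vehicle libraries, as log2 (CPM + 0.1) difference (colour and printed value), for 5 doxorubicin (dox) and 3 vehicle (veh) libraries. ATF4 and DDIT3 stay between −0.10 and 0.34 in doxorubicin 1 to 4 and reach 1.17 and 1.24 in doxorubicin 5, and ASNS runs from −1.59 to −0.94 before its 0.86 in doxorubicin 5.

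Set against the vehicle mean on the log2 (CPM + 0.1) scale, ATF4, DDIT3 and TRIB3 differed from vehicle by −0.10 to 0.68 in doxorubicin 1 to 4 and by 1.17, 1.24 and 1.61 in doxorubicin 5. Doxorubicin 5 was highest and doxorubicin 3 next among doxorubicin libraries for 8 of the 10 genes. The exceptions were ATF5, where doxorubicin 2 came second, and ATF3, which was highest in doxorubicin 2 and 1, at 1.26 and 1.24, against 0.50 in doxorubicin 5. These orders are descriptions of 5 libraries and were not tested.

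**Figure D3:**
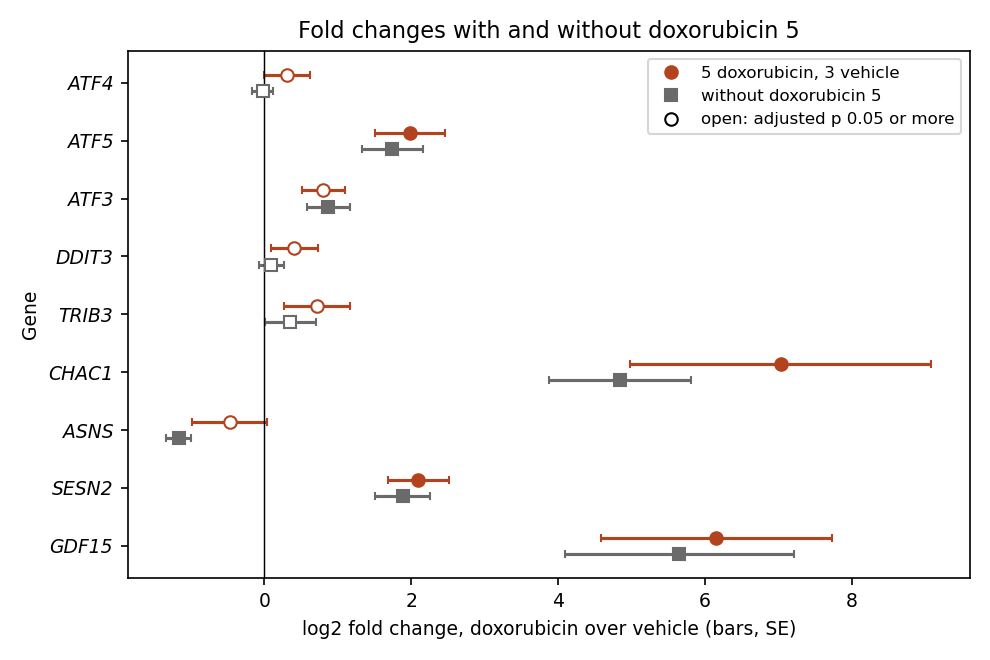
Log2 fold change, doxorubicin over vehicle, of the 9 tested genes with SE bars, for all 8 libraries (red circles) and without doxorubicin 5 (grey squares), filled where the adjusted p was under 0.05. Without doxorubicin 5 ATF4 is at −0.02 and ASNS at −1.17, beside 0.30 and −0.47 with all libraries, while ATF5, SESN2, CHAC1 and GDF15 are filled in both. The positions of CHAC1 and GDF15 depend on the prior count.

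Levels can be compared between genes only per length, so TPM, a relative level corrected for gene length, was computed with the lengths in the deposited table. After doxorubicin ATF4 came first at 178 ± 76.2 TPM (SD, n = 5), followed by DDIT3 at 29.9 ± 12.7, ASNS at 23.8 ± 19.6, ATF5 at 10.4 ± 3.46 and ATF3 at 10.04 ± 3.20 TPM. GDF15 at 7.398 ± 6.56, CHAC1 at 5.02 ± 8.64, TRIB3 at 2.59 ± 1.31, SESN2 at 2.53 ± 1.08 and FGF21 at 0.829 ± 0.669 TPM came after. Only ATF4 was separated from its next neighbour, and the ranges of all other neighbours in that order overlapped. In vehicle the order was ATF4 at 103 ± 10.2 TPM (SD, n = 3), ASNS at 23.95 ± 3.21, DDIT3 at 16.1 ± 2.15, ATF3 at 4.12 ± 0.796, ATF5 at 1.81 ± 1.30, TRIB3 at 1.10 ± 0.361 and SESN2 at 0.419 ± 0.117 TPM, with GDF15, CHAC1 and FGF21 at or near 0. There the ranges of ATF5 and TRIB3 overlapped, as did those of GDF15, CHAC1 and FGF21. A TPM also depends on the mitochondrial share of a library, so TPM are not compared between groups here.

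The genes outside the lists whose profile over the 5 doxorubicin libraries lay closest to each gene were found among 12028 genes, by the root mean square (RMS) difference of log2 (CPM + 0.1) relative to the vehicle mean. For DDIT3 these were BTG1 (RMS difference 0.043) and B4GALT4 (0.064), and for ATF4 the elongation factor EEF1A1 (0.085) and the tetraspanin CD63 (0.095). For ATF5 they were DPM2 (0.12) and SSBP4 (0.18), for TRIB3 GPX1 (0.12) and PGLS (0.15), for ATF3 SCML1 (0.16) and DNPH1 (0.22), and for SESN2 TBC1D10C (0.17) and SERPINF1 (0.23). ASNS had no gene closer than SNAPC1 (0.38) and ZNF667 (0.39). CHAC1 was matched less closely, by C1QTNF3 (0.61) and TNC (0.63), as was GDF15, by KRT8 (0.88) and TREM2 (0.91).

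**Figure D4:**
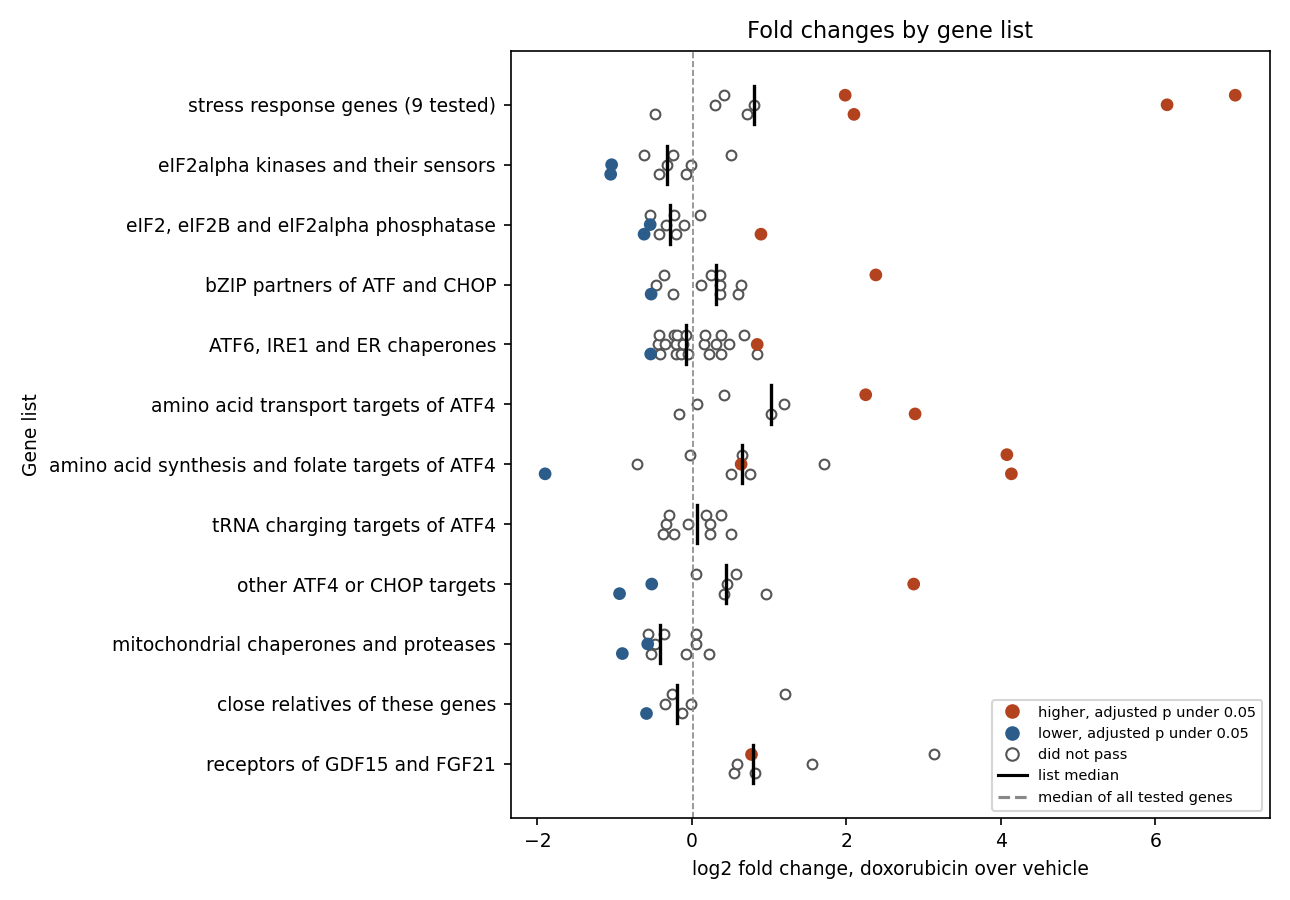
Log2 fold change, doxorubicin over vehicle, of each tested gene (points) by gene list (rows), with black bars for list medians and a dashed line for the median of all tested genes, 0.02. The amino acid synthesis row holds PHGDH at 4.14 and PYCR1 at 4.08. The position of CHAC1 and GDF15 in the top row depends on the prior count.

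Other genes of the pathway were taken from 11 lists with 111 tested genes, of which 10 rose, 12 fell and 89 did not pass (9.01% higher and 10.8% lower, where 13.6% and 11.3% of all tested genes were called). Their median log2 fold change was −0.01. Of the 111, 54 had their highest doxorubicin value in doxorubicin 5. Without doxorubicin 5, 14 were higher and 21 lower (16.8% and 15.4% of all tested genes). Without vehicle 1, 2 or 3 the higher calls were 2, 4 and 2 (2.16%, 7.14% and 2.19% of all tested genes) and the lower calls 2, 5 and 3. Of the 22 genes called with all libraries, ATF6B, BBC3, CLPX and IMPACT kept their call without vehicle 1, and these 4 with EIF2B1 did so without vehicle 3. Without vehicle 2 these 5 and ATF2, JUNB, OMA1 and PPP1R15A kept it, and without doxorubicin 5 all 22 did. With the trend of each library with gene density removed, 14 of the 22 kept their call. ALDH1L2, ATF2, ATF6B, CLIC4, EIF2S3, GPT2, PPP1R15A and SESN1 lost it there.

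Upstream, none of the 4 kinases passed by edgeR or DESeq2. limma called EIF2AK3 higher and EIF2AK1 lower (adjusted p = 0.0395 and 0.0153), and EIF2AK3 also passed edgeR with library size only (adjusted p = 0.0417). EIF2AK1 (HRI, the heme and mitochondrial sensor) had a log2 fold change of −0.42 (adjusted p = 0.137), EIF2AK2 (PKR, the double-stranded RNA sensor) −0.01 (0.979), EIF2AK3 (PERK, the endoplasmic reticulum sensor) 0.51 (0.178) and EIF2AK4 (GCN2, the amino acid sensor) −0.32 (0.232). Of the 9 kinase and sensor genes 2 fell and 7 did not pass, with a median of −0.32. OMA1, the mitochondrial protease that starts the signal to HRI, fell to 9.22 ± 2.77 CPM after doxorubicin, against 19.0 ± 2.41 CPM in vehicle (log2 fold change −1.04, SE 0.25, adjusted p = 0.0175). IMPACT, an inhibitor of GCN2, fell to 10.8 ± 2.08 CPM, against 22.5 ± 1.93 CPM in vehicle (log2 fold change −1.05, SE 0.18, adjusted p = 0.00793), and it passed whichever single library was left out. DELE1, which carries the OMA1 signal to HRI and is listed as KIAA0141, was at −0.63 (adjusted p = 0.0857), the GCN2 activator GCN1 at −0.25 (0.536) and ABCF3 at −0.08 (0.803).

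Among 10 genes of eIF2, its exchange factor eIF2B and the eIF2α phosphatase, 1 rose, 2 fell and 7 did not pass by edgeR (median −0.28). DESeq2 called 1 higher and 4 lower, and limma 1 higher and 8 lower. These tools called 2121 and 4021 of all 14938 tested genes lower. PPP1R15A (GADD34), the stress-induced phosphatase subunit that ends the response, rose 1.86-fold, to 54.9 ± 8.80 CPM after doxorubicin, against 29.5 ± 5.05 CPM in vehicle (adjusted p = 0.0119), with all 5 doxorubicin libraries above vehicle. With the trend of each library with gene density removed, PPP1R15A was at 1.24-fold and did not pass (adjusted p = 0.163). EIF2B1, an eIF2B subunit, fell by 0.62 on the log2 scale (SE 0.13, adjusted p = 0.0123), and EIF2S3, an eIF2 subunit, fell by 0.54 (SE 0.17, adjusted p = 0.0437). EIF2S2 was at −0.54 (adjusted p = 0.0590). Of 12 basic leucine zipper partners 1 rose, 1 fell and 10 did not pass (median 0.31). JUNB, an AP-1 factor, rose to 34.0 ± 18.2 CPM after doxorubicin, against 6.53 ± 1.75 CPM in vehicle (log2 fold change 2.38, SE 0.48, adjusted p = 0.0114), and ATF2 fell by 0.53 (SE 0.15, adjusted p = 0.0338). JUN was at 0.63 (adjusted p = 0.111) and JUND at 0.60 (0.0686).

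The other arms of the unfolded protein response were read in 23 genes of ATF6, IRE1 and endoplasmic reticulum chaperones. By edgeR 1 rose, 1 fell and 21 did not pass (median −0.08), where 24.9% of all tested genes were called. Without doxorubicin 5 the calls were 2 higher and 4 lower, and limma, which called 8051 of all 14938 tested genes, called 5 higher and 8 lower. ATF6B, a relative of the sensor ATF6, rose to 23.4 ± 2.31 CPM after doxorubicin, against 13.0 ± 0.911 CPM in vehicle (adjusted p = 0.00793), a call lost with that trend removed (1.24-fold, adjusted p = 0.170), and HERPUD1, of protein degradation at the endoplasmic reticulum, fell by 0.53 on the log2 scale (SE 0.16, adjusted p = 0.0418). CANX, calnexin, was at −0.41 (adjusted p = 0.0918) and DNAJB9 at −0.43 (0.0765).

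Among 17 amino acid genes that ATF4 is known to drive, 5 rose, 1 fell and 11 did not pass, where 13.6% of all tested genes were called higher and 11.3% lower. Of 7 transporters 2 rose and 5 did not pass (median 1.02). SLC6A9, a glycine carrier, was at 1.15, 1.47, 3.27, 1.14 and 3.75 CPM in doxorubicin 1 to 5, against 0.643, 0.347 and 0.356 CPM in vehicle 1 to 3 (log2 fold change 2.25, SE 0.60, adjusted p = 0.0254). SLC7A5, the large neutral amino acid carrier, was at 2.35, 9.45, 13.8, 4.98 and 20.5 CPM after doxorubicin, against 1.14, 0.277 and 2.70 CPM in vehicle (log2 fold change 2.89, SE 0.83, adjusted p = 0.0335). Doxorubicin 1 lay below vehicle 3 for SLC7A5. Its call was lost without vehicle 1, 2 or 3 (adjusted p = 0.124, 0.0920 and 0.0597), and without vehicle 3 the log2 fold change was 3.83. SLC7A1 was at 1.02 (adjusted p = 0.0550) and SLC1A5 at 1.19 (0.0748).

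Of 10 genes of amino acid synthesis and folate metabolism 3 rose, 1 fell and 6 did not pass (median 0.64). PHGDH, the first enzyme of serine synthesis, was at 0.873, 3.89, 5.56, 2.59 and 22.9 CPM in doxorubicin 1 to 5, against 0.214, 0.277 and 0.711 CPM in vehicle 1 to 3 (log2 fold change 4.14, SE 1.14, adjusted p = 0.0293). PYCR1, of proline synthesis, was at 8.08, 16.9, 31.7, 4.56 and 116 CPM after doxorubicin, against 2.43, 2.01 and 1.85 CPM in vehicle (log2 fold change 4.08, SE 1.12, adjusted p = 0.0304). For both genes the groups did not overlap, and doxorubicin 5 was highest by a wide margin. Without it the log2 fold changes were 2.996 (adjusted p = 0.0117) and 2.87 (adjusted p = 0.0173). Both calls were lost without vehicle 1, 2 or 3 (adjusted p = 0.115, 0.0936 and 0.0786 for PHGDH, and 0.0999, 0.0874 and 0.102 for PYCR1). They were also lost with no filter on low counts (0.0749 and 0.101). ALDH1L2, a mitochondrial folate enzyme, rose by 0.64 on the log2 scale (SE 0.17, adjusted p = 0.0273). GPT2, a mitochondrial alanine aminotransferase, was at 0.327, 0.455, 0.607, 0.519 and 2.20 CPM after doxorubicin, against 3.0, 1.94 and 4.34 CPM in vehicle, and fell (log2 fold change −1.90, SE 0.61, adjusted p = 0.0475). Without doxorubicin 5 its log2 fold change was −2.67 (adjusted p = 0.00310). The GPT2 call was lost with library size only (adjusted p = 0.0855), with the gene density trend removed (0.0771) and without any other single library (0.0668 to 0.175). Like ASNS, GPT2 had doxorubicin 1 to 4 below every vehicle library, with doxorubicin 5 highest of its group, here inside the vehicle range.

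None of 10 tRNA charging and export genes passed by edgeR or DESeq2, while 2 higher and 2 lower had an unadjusted p under 0.05 in each and limma called 2 higher and 4 lower (median log2 fold change 0.07 by edgeR). The unadjusted 4 were AARS (0.38, adjusted p = 0.111) and WARS (0.51, 0.0772) on the higher side, and NARS (−0.37, 0.0903) and EPRS (−0.30, 0.121) on the lower. Of 8 other ATF4 or CHOP targets 1 rose, 2 fell and 5 did not pass (median 0.44). BBC3 (PUMA), a trigger of apoptosis that p53 induces too, rose to 7.47 ± 2.81 CPM after doxorubicin, against 1.02 ± 0.399 CPM in vehicle (adjusted p = 0.00588), and passed whichever single library was left out. KLHL24 fell by 0.94 (SE 0.26, adjusted p = 0.0299) and CLIC4 by 0.52 (SE 0.17, adjusted p = 0.0467), both on the log2 scale, and EIF4EBP1, a brake on cap-dependent translation, was at 0.96 (adjusted p = 0.119).

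Of 10 mitochondrial chaperones and proteases 2 fell and 8 did not pass by edgeR (median −0.42). DESeq2 and limma each called 4 of them lower, where they called 2121 and 4021 of all 14938 tested genes lower. CLPX, the unfoldase of the CLP protease, fell by 0.90 on the log2 scale (SE 0.16, adjusted p = 0.00849) and YME1L1, an inner membrane protease, by 0.57 (SE 0.14, adjusted p = 0.0205). HSPD1 was at −0.53 (adjusted p = 0.0536) and HSPA9 at −0.56 (0.0861), the main chaperones of the matrix.

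Relatives of these genes were read too. SESN1, another sestrin, fell to 71.9 ± 14.4 CPM after doxorubicin, against 108 ± 5.58 CPM in vehicle (log2 fold change −0.59, SE 0.18, adjusted p = 0.0396), while SESN2 rose. SESN3 was at 1.20 (SE 0.40, adjusted p = 0.0529) and did not pass by edgeR. It was called higher by DESeq2 (adjusted p = 0.0136), by limma (0.0105) and by edgeR with library size only (0.0219). TRIB1 was at −0.35 (adjusted p = 0.181), TRIB2 at −0.13 (0.651), CHAC2 at −0.25 (0.500) and GGCT at −0.01 (0.984), and none of these 4 passed by edgeR or DESeq2, while limma called TRIB1 lower (adjusted p = 0.0125). By edgeR with TMM, 1 of 6 relatives fell and 5 did not pass (median −0.19).

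Receptors of the hormones were mostly read at low levels. GFRAL, the GDF15 receptor known from the brain stem, had 0 reads in all vehicle libraries and at most 0.437 CPM after doxorubicin, and KL, the α-klotho coreceptor, had 0 reads in vehicle and at most 0.101 CPM after doxorubicin. KLB, the β-klotho coreceptor through which FGF21 acts, averaged 1.79 ± 0.321 CPM after doxorubicin and 1.22 ± 0.0903 CPM in vehicle (adjusted p = 0.238). FGFR1, its main signalling partner, rose to 82.6 ± 15.9 CPM after doxorubicin, against 48.7 ± 5.52 CPM in vehicle (log2 fold change 0.76, SE 0.19, adjusted p = 0.0188), with all 5 doxorubicin libraries above vehicle. FGFR2 was at 22.2 CPM in doxorubicin 5, against 1.26 to 2.10 CPM in doxorubicin 1 to 4 and 0.347 to 0.853 CPM in vehicle, and did not pass (adjusted p = 0.0854). RET (0.59, adjusted p = 0.551), FGFR3 (0.82, 0.306) and FGFR4 (1.56, 0.0792) did not pass either, so 1 of 6 tested receptor genes rose.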

How the data were processed

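The authors deposited raw counts per gene for 8 pig heart libraries (5 doxorubicin, 3 vehicle), with gene lengths. Per the labels' protocols, total RNA was column purified and a SMARTER mRNA kit was used. Aligner, counter and strand setting: not given in the sources used here. Of 31014 genes 30335 matched RefSeq Sscrofa11.1 by identifier, all with the same start and end, so its coordinates are printed. The fit used edgeR 4.0.16 (R 4.3.3): low genes were removed with filterByExpr (minimum count 10, total 15, leaving 14938 genes), libraries were scaled by TMM, and treatment alone was tested by robust quasi-likelihood, two-sided, at an adjusted p under 0.05. SE come from the fold change and F statistic. The fit was tested on simulated counts. FGF21 was tested by exact permutation, added after the filter removed it. Ratios of CHAC1, GDF15 and FGF21 use summed reads over TMM-scaled library totals, also chosen after seeing the data. Alternatives were RLE, library size only, TMM without the most abundant genes, other filters, DESeq2 1.42.0, limma 3.58.1 voom, a replicate block, each library left out, and, chosen after seeing the data, an offset for the number of protein-coding genes nearby. The 10 genes, the gene lists and the marker lists were chosen with earlier results of these data known. Named genes were the 10, up to 4 per list by smallest p (all kinases, relatives and receptors), and the 2 closest profiles per tested gene among genes with a symbol and a mean of 1 CPM or more. TNFRSF10B and HBA1 were not matched by symbol, older symbols were used for 10 genes, and MYH6 was taken as the row described as myosin-6. No library pair agreed within sampling noise. Figures used matplotlib 3.10.9.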

Additional observations from a re-analysis of the deposited data

Results flagged for a closer look

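Of 81 genes tested for a library far from its group, 23 had one in the doxorubicin group, in each case doxorubicin 5 as the highest (Dixon's ratio above 0.71). Chance alone flags about 5% of groups, counting any library at either end. Doxorubicin 5 stood above its group in this way for 6.5% of all tested genes. That share counts only this library and only as the highest, so it is not a like measure to the 5%. The 81 include genes chosen for a profile like that of the stress response genes, so their flags are not independent. Among the 10 stress response genes, doxorubicin 5 was at 338 CPM for ATF4, 16.1 CPM for ATF5, 24.4 CPM for DDIT3, 16.5 CPM for CHAC1 and 50.4 CPM for ASNS. Among listed pathway genes it was at 109 CPM for EIF2S2, 19.5 CPM for SLC7A1, 60.4 CPM for SLC1A5, 22.9 CPM for PHGDH, 116 CPM for PYCR1, 2.20 CPM for GPT2, 111 CPM for NARS, 7.0 CPM for GGCT and 22.2 CPM for FGFR2. Among genes with like profiles it was at 6570 CPM for EEF1A1, 516 CPM for CD63, 22.7 CPM for DPM2, 202 CPM for BTG1, 15 CPM for B4GALT4, 159 CPM for C1QTNF3, 396 CPM for TNC, 10.3 CPM for SNAPC1 and 13.3 CPM for ZNF667.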

How the results depend on the processing

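Direction and call were recomputed under 18 other settings. Of 80 named genes tested, 34 were called, 5 of them (IMPACT, ATF6B, BBC3, CLPX and SSBP4) whichever single library was left out, and 4 (all but ATF6B) in every setting run. Many of the 80 were named for a small p in this same fit or for a profile like that of a stress response gene. Their count is therefore raised by selection and cannot be read against the 24.9% of all tested genes called. Leaving out 1 library gave 334 to 2472 higher and 315 to 2265 lower genes of all tested, beside 2033 and 1681 with all libraries, 0 to 5 higher and 0 to 1 lower of the stress response genes, and 2 to 14 higher and 2 to 21 lower of the listed pathway genes. Scaling by library size only gave 4093 higher and 499 lower of all genes and 27 higher and 2 lower pathway genes. With that scaling all genes had a median of 0.38 on the log2 scale, beside 0.02 with TMM. limma voom gave 4030 and 4021 of all genes, 24 and 37 of the pathway genes, and 6 higher and 1 lower of the stress response genes. With no filter on low counts 7 pathway genes were lower. The cause of these shifts was not tested.

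The log2 fold change of these genes, none called, changed sign, and the cause was not tested. With library size only they were EIF2AK4 (0.028), GCN1 (0.10), ABCF3 (0.28), EIF2AK2 (0.36), EPRS (0.055), TRIB1 (0.0064), CHAC2 (0.10), TRIB2 (0.22) and GGCT (0.34). With TMM without the most abundant genes they were EIF2AK2 (0.00049) and GGCT (0.0049). With limma they were DDIT3 (−0.042), ABCF3 (0.10), EEF1A1 (−0.058) and CD63 (−0.10), and without the gene density trend EIF2AK2 (0.12), TRIB2 (0.17), GGCT (0.070) and CD63 (−0.31). Over the libraries left out in turn, ATF4 ran from −0.025 to 0.40, ABCF3 from −0.18 to 0.020, EIF2AK2 from −0.28 to 0.17, GGCT from −0.31 to 0.082 and CD63 from −0.052 to 0.39.

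The groups share replicate numbers 1 to 3, and deviations of same-numbered libraries correlated at 0.043, 0.002 and −0.003. Those of differently numbered libraries ran from −0.12 to 0.13. These correlations show no pairing by number, but they cannot exclude one. With the replicate block on these 6 libraries 3653 genes were called, beside 4090 without it, and 1 stress response gene (ASNS) was lower in both. EIF2AK2 was at 0.13 with the block and 0.19 without it, and RET at −0.066 with the block. Reads limit CHAC1, GDF15 and FGF21 most, since vehicle held 1, 2 and 0 reads of them in all.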
